A study of Mus musculus with 60 samples.

Results

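The comparison described here set IL6-iHPCs-D7, primary mouse hepatocytes kept for 7 days in hepatocyte culture medium (HCM) with interleukin 6 (IL6), against HCM-Hepa-D7, hepatocytes kept for the same 7 days in HCM without IL6. Both groups were wild-type liver cells of C57BL/6 mice by the labels (C57BL/6J in the methods) in their first culture (P0), so that the medium with IL6 was the labelled difference between them. HCM contained the growth factors EGF and HGF, and the IL6 expansion medium is further given in the study's methods as DMEM/F12 with insulin, transferrin and selenium and dexamethasone. There were 3 samples per group, that is 6 of the 60 samples of the series, and 3 samples of uncultured Primary hepatocytes from the same table served as the reference level. In the study the comparison served to pick transcription factors that were higher with IL6 than in hepatocytes and in HCM alone.

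The members were every complete gene row of the day 7 table, 480 genes, with no selection by value among these rows. They were genes of all kinds and not a random draw from the genome: the table breaks off, and its rows stood in a clustered order. The median correlation was 0.74 between neighbouring rows over the 9 samples against 0.38 over all pairs of rows. Which genes are present thus depends on where the table ends, and shares over them need not hold for other genes. Of the 480 rows, 276 reached 1 FPKM (fragments scaled to transcript length and to the mapped fragments of the library) in at least 3 of the 9 samples and were tested, and the other 204 were not. Among those 204, the highest mean over the 6 cultures was 0.891 FPKM, and 42 rows were at 0 in all 6 cultures. No member of the hepatocyte, macrophage, leukocyte, endothelial or red blood cell marker lists stood among the 480 rows, nor did the feedback inhibitor Socs3 or the acute phase Saa genes, so the labelled cell type could not be checked here against its defining markers. The markers present were Cd24a of the cholangiocyte list and Angptl6 of the stellate cell list. The reads on the rows ranged from 1274764 to 1960453 in the 6 cultures and from 619011 to 871968 in Primary hepatocytes. HCM-Hepa-D7 replicate 1 and IL6-iHPCs-D7 replicate 2 stood somewhat apart from their own groups, although every replicate pair correlated at 0.9975 or more on the log2 scale.

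IL6 binds its receptor together with gp130 and acts through JAK kinases, which phosphorylate STAT3, and also through the ERK and AKT pathways. In the liver it is the main inducer of the acute phase response, in which hepatocytes change the plasma proteins that they secrete, and it takes part in regeneration after partial hepatectomy. C/EBP transcription factors work beside STAT3 at many acute phase genes, and STAT3 dimers bind the palindrome TTCNNNGAA.

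The day 7 cultures differed most in a small group of genes. Between IL6-iHPCs-D7 and HCM-Hepa-D7, 15 of the 276 genes (5.43%) differed by at least 2-fold on the log2(FPKM + 1) scale with an adjusted p under 0.05 by limma, and these are the genes called below. Of these, 13 were higher with IL6 (4.71%) and 2 were lower (0.725%). When the samples were centred on their medians, the split was 9 higher and 4 lower. With no limit on the fold, 160 genes (58%) passed, 88 higher (31.9%) and 72 lower (26.1%), so most differences were significant but small. The median difference over the 276 genes was -0.000482 on the log2 scale, with quartiles of -0.201 and 0.27. The 3 values of one group did not overlap the 3 of the other in 167 genes (60.5%), among them all 15 called genes. With 3 against 3 samples, an exact permutation test of 1 gene cannot go below 0.1, so the p-values rest on limma's pooled spread. The labels do not say whether the replicates came from separate mice or cultures, and the p-values may then cover technical spread only.

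**Figure D1:**
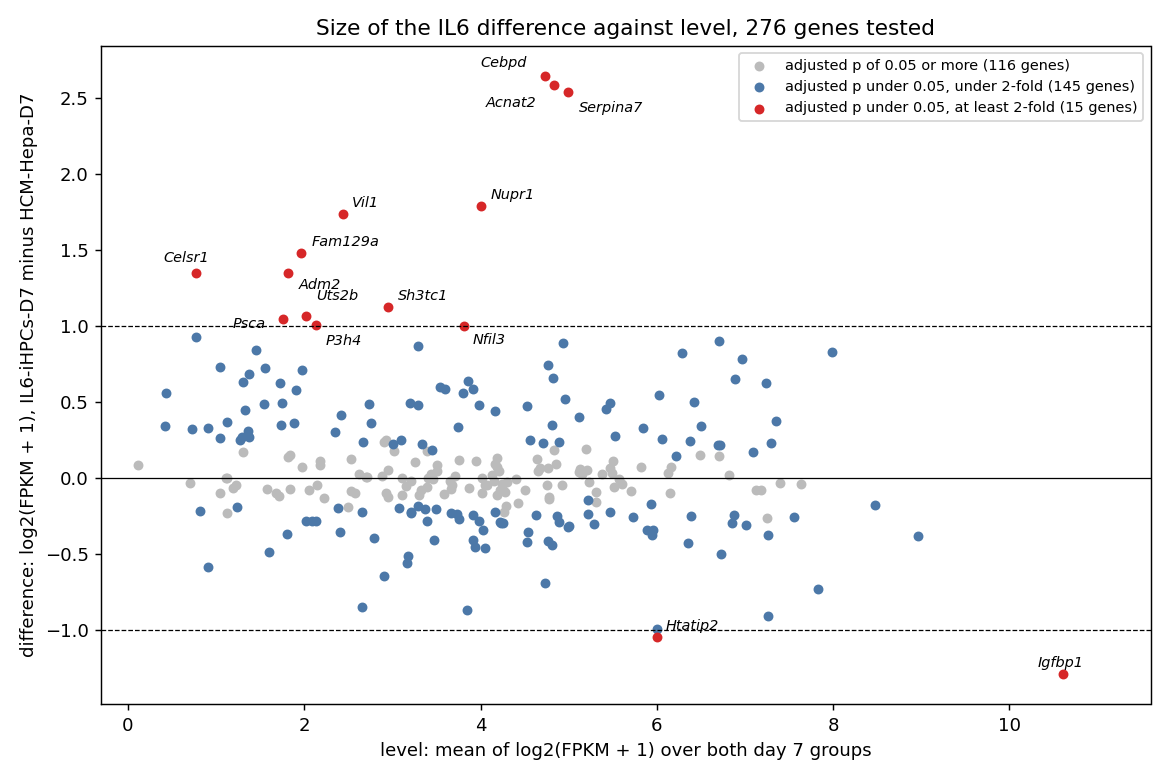
Each point is 1 of the 276 tested genes, with its mean level in the 6 day 7 cultures (log2(FPKM + 1)) on the horizontal axis and the difference IL6-iHPCs-D7 minus HCM-Hepa-D7 (log2(FPKM + 1)) on the vertical axis; the dashed lines mark a 2-fold difference. Cebpd, Acnat2 and Serpina7 stand alone above 2.5, and Igfbp1, the gene with the highest level, is the lowest point at -1.29.

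The largest rise was that of Cebpd, which encodes C/EBP delta, a basic leucine zipper factor of the acute phase response (mm10, chr16:15887286-15889545). Its level was 58.9, 74.5 and 63.2 FPKM in the 3 IL6-iHPCs-D7 samples, 11.3, 8.62 and 9.05 in HCM-Hepa-D7 and 2.75, 2.66 and 2.98 in Primary hepatocytes. The cultures with IL6 were all far above those without, and both were above the uncultured cells. The means were 65.5 ± 8.08 and 9.66 ± 1.44 FPKM (SD, n = 3), a 6.78-fold difference, and the log2 difference was 2.64 (SE 0.102, adjusted p = 1.3e-09). In bulk samples more cells of a type and more RNA per cell cannot be told apart, for Cebpd and for the other genes. Cebpd was covered by 9776 to 13277 reads with IL6 and by 1168 to 2242 without.

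Serpina7 encodes thyroxine-binding globulin, a thyroid hormone carrier that the liver secretes into plasma (mm10, chrX:139079249-139085236). It stood at 78.7, 63.2 and 85.2 FPKM with IL6, at 11.9, 12.8 and 11.7 without it and at 5.36, 5.4 and 5.47 in Primary hepatocytes. The difference of Serpina7, 2.53 (SE 0.0907, adjusted p = 7.78e-10), was close in size to that of Cebpd, and the IL6 samples spread more than those without. Acnat2 belongs to the family of acyltransferases that join fatty or bile acids to amino acids (mm10, chr4:49374458-49408151). Its values were 69.6, 68.7 and 68.3 FPKM with IL6 against 11.1, 10.1 and 10.8 without, and 15.2, 14.1 and 13.3 in Primary hepatocytes. The samples in HCM alone lay below the uncultured cells, and the difference with IL6 was 2.58 (SE 0.0587, adjusted p = 1.46e-11). Acnat2 has a close copy in the genome, Acnat1, and how shared reads were divided is not given in the sources used here.

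The called genes with the next largest rises were near 0 in uncultured hepatocytes. Of the 13 higher genes, 8 had a mean under 1 FPKM in Primary hepatocytes, as had 62 of all 276 tested genes (22.5%). Nupr1, a small nuclear protein induced by many kinds of cell stress (mm10, chr7:126623246-126625470), measured 28.6, 30.8 and 27.2 FPKM with IL6 and 6.9, 7.59 and 8.56 without, while Primary hepatocytes had 0, 0.258 and 0.186. Its difference was 1.79 (SE 0.0957, adjusted p = 2.96e-08). Vil1 encodes villin, which bundles actin in microvilli (mm10, chr1:74409384-74435560), and measured 8.93, 9.38 and 8.27 FPKM with IL6 against 1.61, 2.36 and 1.97 without. Its level in Primary hepatocytes was 0.042 ± 0.00987 FPKM (SD, n = 3), and its difference between the cultures was 1.73 (SE 0.0868). Fam129a, named Niban1 in RefSeq and known as a stress response gene (mm10, chr1:151571373-151721432), was at 6.23, 4.51 and 5.86 FPKM with IL6 against 1.2, 1.4 and 1.4 without, a difference of 1.48 (SE 0.0935). IL6-iHPCs-D7 replicate 2 was the lowest of the IL6 samples for Fam129a and still above every sample without IL6.

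Of the secreted peptides, Adm2 (adrenomedullin 2; mm10, chr15:89322720-89324731) measured 4.21, 4.92 and 4.72 FPKM with IL6 and 1.21, 1.03 and 1.39 without, and Uts2b (urotensin 2B; mm10, chr16:27353322-27370239) measured 4.43, 4.66 and 5.33 against 1.45, 1.52 and 2.47. Both were listed at 0 in all 3 Primary hepatocyte samples. Psca, a GPI-anchored surface protein (mm10, chr15:74714839-74717065), was also at 0 there and measured 3.24, 5.01 and 3.43 FPKM with IL6 against 1.1, 1.37 and 1.6 without. P3h4, a protein of the endoplasmic reticulum that takes part in collagen modification (mm10, chr11:100408467-100414716), measured 5.03, 5.81 and 4.87 FPKM against 1.99, 2.28 and 2.04. Sh3tc1 (mm10, chr5:35697180-35739987) measured 10.1, 11 and 10.3 FPKM against 4.43, 4.05 and 4.3. The log2 differences were 1.35 for Adm2, 1.12 for Sh3tc1, 1.06 for Uts2b, 1.04 for Psca and 1.01 for P3h4. For Uts2b, Psca and P3h4 the call depended on single libraries and on the scaling. When samples were centred they stood at 0.963, 0.944 and 0.907, and under quantile normalization at 0.82, 0.749 and 0.824, all under 2-fold. Without HCM-Hepa-D7 replicate 1 all 3 fell under 2-fold, to 0.971, 0.964 and 0.979, and the adjusted p stayed at 8.51e-05 or lower. Psca and P3h4 were under 2-fold without IL6-iHPCs-D7 replicate 2 (0.886 and 0.941), P3h4 without HCM-Hepa-D7 replicate 3 (0.993), and Uts2b without IL6-iHPCs-D7 replicate 3 (0.998) or HCM-Hepa-D7 replicate 2 (0.992).

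Celsr1, a cadherin of planar cell polarity, followed a different course (mm10, chr15:85898758-86034223). It measured 1.92, 1.62 and 1.64 FPKM with IL6, 0.0381, 0.0763 and 0.0982 without, and 2.14, 2.37 and 2.34 in Primary hepatocytes. HCM alone left it near 0, while the day 7 cultures with IL6 lay somewhat below the uncultured samples. These values rested on 1294 to 1433 reads with IL6 and 34 to 57 without. For Primary hepatocytes the reads came out as 1088, 1190 and 1632. Those counts share a large common factor, so whether that level was scaled as in the cultures is not known. The difference was 1.35 (SE 0.0675, adjusted p = 1.66e-08) on the log2(FPKM + 1) scale, which understates low genes: the ratio of the means was 24.3. On the same scale, IL6-iHPCs-D7 minus Primary hepatocytes was -0.27 for Celsr1.

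**Figure D2:**
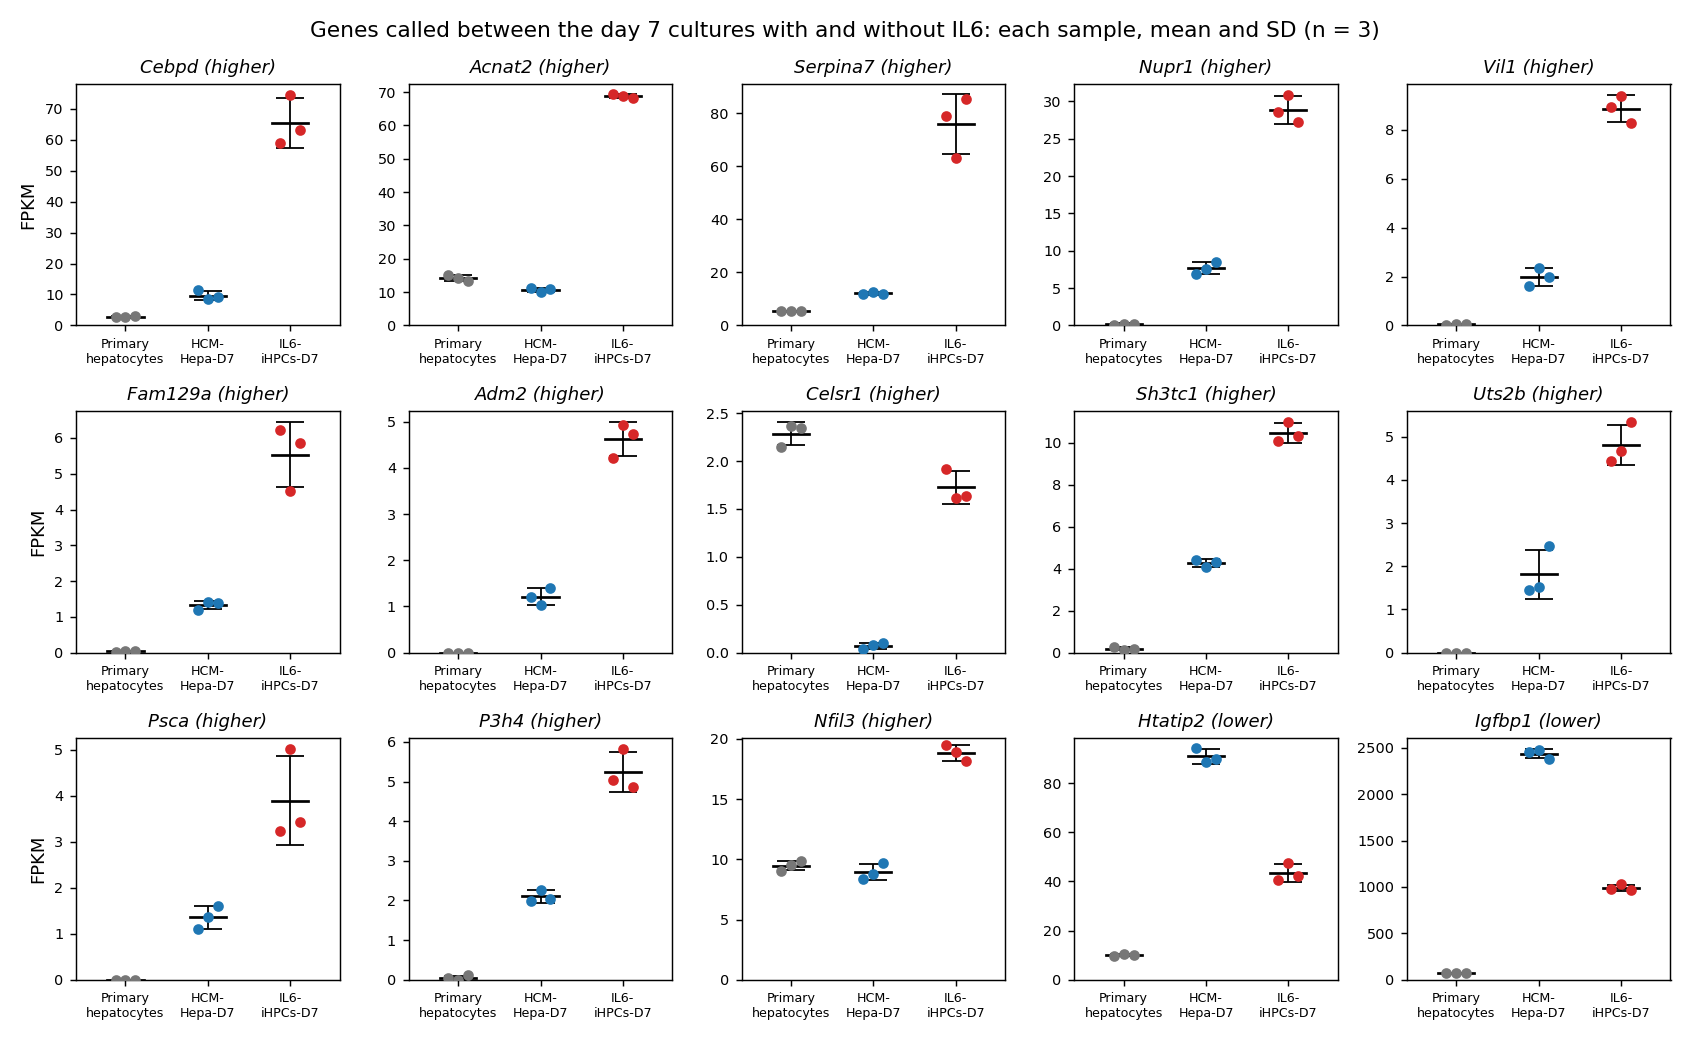
FPKM (linear axes from 0) of the 15 called genes in Primary hepatocytes, HCM-Hepa-D7 and IL6-iHPCs-D7; each point is 1 sample, and the bars give the mean and SD (n = 3). The IL6 samples are above those without IL6 in the 13 higher genes and below them in Htatip2 and Igfbp1, with no overlap.

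The 2 lower genes were both far above the uncultured level in both cultures. Igfbp1, which encodes a secreted binding protein of the insulin-like growth factors (mm10, chr11:7197787-7202546), had the highest mean of all 480 rows. It stood at 983, 1029 and 965 FPKM with IL6 against 2454, 2472 and 2380 without, and at 69.7, 69.5 and 70.5 in Primary hepatocytes. Its level with IL6 was thus 2.45-fold lower than in HCM alone (log2 difference -1.29, SE 0.0425, adjusted p = 4.45e-10). Under quantile normalization this difference is 0 by construction, since Igfbp1 holds the top rank in every culture. Htatip2 (mm10, chr7:49759045-49774000) measured 40.7, 47.5 and 42.1 FPKM with IL6, 94.2, 88.6 and 89.9 without and 9.87, 10.4 and 10 in Primary hepatocytes, a difference of -1.05 (SE 0.0616, adjusted p = 5.23e-08).

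Just outside the 2-fold limit, Pnpla2 measured 44.6 ± 3.43 FPKM with IL6 and 89.6 ± 0.846 without (log2 difference -0.99, adjusted p = 5.23e-08). It encodes the lipase that starts triglyceride breakdown. Calml4 was the nearest on the other side, at 0.93. The next genes on the lower side were the linker histone gene Hist1h1c (-0.91), the vitamin D-regulated calcium binding protein gene S100g (-0.87) and the inhibitory receptor gene Sirpa (-0.85). These genes were named after their values were seen.

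Against Primary hepatocytes, 128 of the 276 genes (46.4%) were higher and 19 (6.88%) lower in IL6-iHPCs-D7 by the same rule. Of the 13 genes higher with IL6 than without, 11 (3.99% of the 276 genes) were also called higher than Primary hepatocytes, and the exceptions were Celsr1 and Nfil3. The comparisons share the IL6-iHPCs-D7 samples. No gene was called lower than both other groups, by limma, by voom on recovered reads, or with an unadjusted p under 0.05 and the same fold limit. At any fold 14 genes were, adjusted or not, and of these Gstm1 alone passed a 1.5-fold limit. By level, the uncultured cells lay below both cultures in 10 of the 13 higher genes and in both lower genes, as they did in 203 of all 276 tested. They lay between the cultures and nearer HCM-Hepa-D7 for Acnat2 and Nfil3, and above both cultures for Celsr1.

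Of the 24 transcription factors of the list among the rows, 16 were tested, and 2 were called, Cebpd and Nfil3. At any fold 7 rose, 3 fell and 6 did not pass, and the median of the 16 was 0.119 against -0.000482 over all genes tested. Over all 276 genes, 5.43% were called, and at any fold 31.9% rose and 26.1% fell. The counts of this list and of the lists below are to be read beside these shares, and no list was tested as a set. Nfil3, a basic leucine zipper repressor (mm10, chr13:52967209-52982878), measured 19.5, 18.9 and 18.1 FPKM with IL6, 8.35, 8.78 and 9.66 without and 9.07, 9.5 and 9.86 in Primary hepatocytes. The samples in HCM alone overlapped the uncultured ones, and the IL6 samples had 2.11-fold that of HCM-Hepa-D7. Its log2 difference of 1 (SE 0.0627, adjusted p = 9.53e-08) lay on the 2-fold limit, and it fell under it without IL6-iHPCs-D7 replicate 1 (0.977) or 2 (0.998) and without HCM-Hepa-D7 replicate 1 (0.958) or 2 (0.991). The call was also lost when samples were centred on their medians (0.901). Barx2, Elf3, Mxd3 and Foxm1 were not among the 480 rows and were not analysed here.

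Of the other transcription factors, 5 rose by less than 2-fold and 3 fell. Atf5 measured 144, 158 and 139 FPKM with IL6 and 92, 96.6 and 90.5 without (log2 difference 0.65, adjusted p = 2.25e-06). Atf4, the factor that drives amino acid synthesis genes when amino acids run short, measured 172, 202 and 181 against 149, 137 and 141 (0.38, adjusted p = 0.00029). Srebf1, which drives lipid synthesis, measured 37.5, 41.5 and 37.5 against 28.3, 29.3 and 29.9 (0.4, adjusted p = 6.27e-05) and stood far below its level of 120 ± 2.95 FPKM (SD, n = 3) in Primary hepatocytes. Six5 and Zhx3 also rose slightly (0.31 and 0.3), but under quantile normalization neither passed (adjusted p = 0.955 and 0.0515). Atf3 fell (-0.27, adjusted p = 0.00161), as did Zfp775 and Zfp358. Jund, at 165 ± 14 and 170 ± 25.5 FPKM (SD, n = 3), and Pparg, at 3.03 ± 0.485 and 3.26 ± 0.471, overlapped between the cultures.

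The list of IL6, JAK-STAT and acute phase genes had 3 tested members. Cebpd was called higher. Ifngr1, a receptor chain for interferon gamma, measured 114, 101 and 116 FPKM with IL6 and 89.5, 97.8 and 98.2 without (0.21, adjusted p = 0.0111), a difference that did not pass when samples were centred (adjusted p = 0.192). Ccl7, a monocyte chemokine, measured 6.61, 5.94 and 6.7 FPKM with IL6 and 10.7, 9.25 and 9.88 without and fell (-0.56, adjusted p = 2.6e-05). It was listed at 0 in all 3 Primary hepatocyte samples. Ccl20, at 6.41 ± 1.09 and 7.04 ± 0.283 FPKM (SD, n = 3), did not pass.

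Of 5 tested genes of secreted plasma proteins, 3 rose at any fold, 1 fell and 1 did not pass, with a median of 0.818. Beside Serpina7 and Igfbp1, these were Angptl4, an inhibitor of lipoprotein lipase, and Igfbp7, a matrix-bound binding protein. Angptl4 was at 317, 381 and 316 FPKM with IL6 against 195, 194 and 181 without (0.83, adjusted p = 1.25e-06). Igfbp7 was at 108, 116 and 80.2 against 40.9, 58.4 and 75.4, and its groups lay close to each other (0.82, SE 0.184, adjusted p = 0.00238).

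In the list of lipid, cholesterol and bile acid metabolism, 8 of 16 tested members rose at any fold, 1 fell and 7 did not pass. Their median was 0.198, or 0.0993 when samples were centred, and the differences within the list were all under 2-fold. Genes of sterol synthesis were among those that rose. Cyp51, the lanosterol demethylase, measured 35.8, 31.3 and 35.5 FPKM with IL6 against 20, 18.9 and 21.2 without (0.74, adjusted p = 2.2e-06). Hmgcs1, which makes HMG-CoA for the sterol pathway, measured 58.6, 38.5 and 58 FPKM against 32.1, 36.3 and 39.8 (0.49, adjusted p = 0.00829). Its groups overlapped, IL6-iHPCs-D7 replicate 2 being the low sample, and under quantile normalization it did not pass (adjusted p = 0.0538). Msmo1 rose as well (0.32), with an adjusted p of 0.0601 when samples were centred. Fatty acid synthase (Fasn) did not pass, at 36.6 ± 2.23 and 35.4 ± 4.34 FPKM (SD, n = 3). The member that fell was Pnpla2.

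Of the 8 tested genes of glucose and amino acid metabolism, 3 rose at any fold and 5 did not pass. Psat1, of serine synthesis, measured 94.2, 114 and 95.6 FPKM with IL6 against 75, 69.5 and 69.6 without (0.49, adjusted p = 0.000296), and Mthfd2, of the mitochondrial folate pathway, 15.2, 16.5 and 15.9 against 10.4, 9.31 and 11.9 (0.56, adjusted p = 0.000139). Both were under 1 FPKM in Primary hepatocytes. The third was Pklr, the liver pyruvate kinase (0.34). Asns, at 93.8 ± 7.64 and 84.5 ± 4.6 FPKM (SD, n = 3), and Psph, at 24.6 ± 3.44 and 23.7 ± 1.26, did not pass. Phgdh, at 139 ± 24.4 with IL6 and 166 ± 19 without, did not pass either (adjusted p = 0.0551), but it did when samples were centred (-0.36, adjusted p = 0.0152). Trib3, a pseudokinase that ATF4 induces, measured 38.3, 43.9 and 39.7 FPKM with IL6 against 22.7, 21.2 and 20.5 without (0.89, adjusted p = 5.91e-07). Slc3a2, the shared heavy chain of several amino acid transporters, measured 65.9, 73.9 and 68.5 against 96.7, 92.6 and 92.2 and fell (-0.43, adjusted p = 5.51e-05). Trib3 is of the kinase list and Slc3a2 of the transporter list, in which Slc7a7 (0.48) and Slc6a9 (0.41) rose.

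Among 10 tested genes of the cytoskeleton, 5 rose and 3 fell at any fold, with a median of 0.263. Beside villin, the tubulin genes Tubb2b and Tubb2a rose, from 75.6 ± 5.88 to 142 ± 13.1 FPKM and from 94 ± 4.54 to 162 ± 16.3 (SD, n = 3), with differences of 0.9 and 0.78. These tubulins are near-identical copies, and reads that they share could be counted for either. Myl12b, a regulatory light chain of non-muscle myosin and one of the 5 most abundant members, fell from 568 ± 11.8 to 437 ± 45.3 FPKM (SD, n = 3). Its log2 difference was -0.38 (adjusted p = 0.00041). As for Igfbp1, quantile normalization put the difference of Myl12b at 0, since that scaling replaces each value by one set by its rank.

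**Figure D3:**
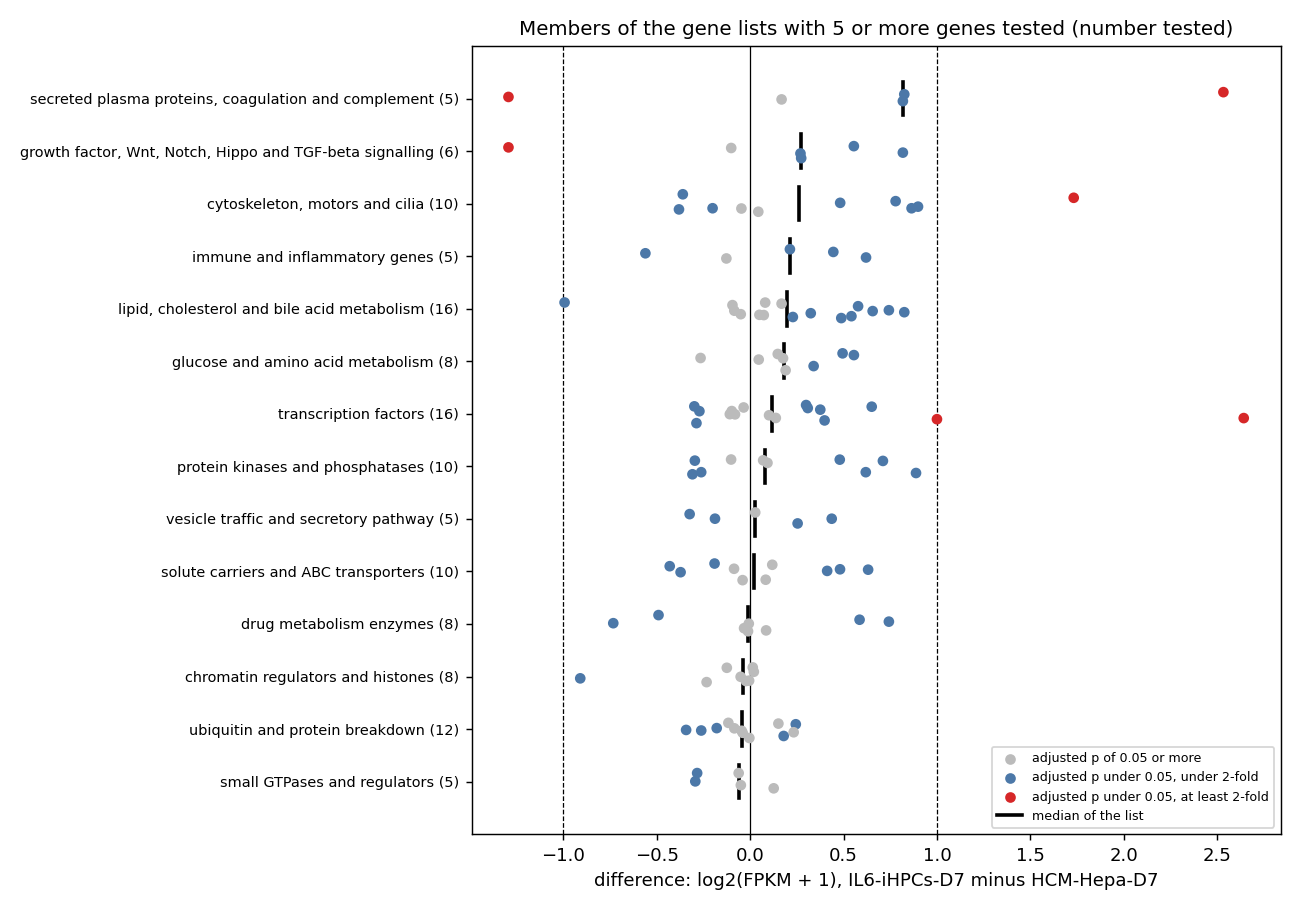
Each point is 1 tested member of a gene list with at least 5 tested members, placed by its log2(FPKM + 1) difference, IL6-iHPCs-D7 minus HCM-Hepa-D7; black bars give the median of the list, colours the test, and dashed lines 2-fold. Among these lists the medians run from -0.0617 (small GTPases and regulators) to 0.818 (secreted plasma proteins), and red points occur in 4 of them.

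Of 8 tested drug metabolism enzymes, 2 rose, 2 fell and 4 did not pass, and the list's median was -0.00953, against -0.000482 over all genes tested. The 2 that rose were the sterol enzymes Cyp51 and Hsd17b7. Gstm1, a glutathione transferase of mature hepatocytes, fell in culture and was lower again with IL6: it measured 919, 943 and 912 FPKM in Primary hepatocytes, 256, 316 and 309 in HCM alone and 178, 175 and 173 with IL6 (-0.73, adjusted p = 3.02e-06). It has close copies in its gene cluster. Cyp2b10 fell from 2.6 ± 0.421 to 1.57 ± 0.354 FPKM (SD, n = 3; -0.49). Of the other abundant members, the lysosomal protease gene Ctsl measured 324, 332 and 344 FPKM with IL6 against 375, 384 and 374 without (-0.18, adjusted p = 0.00345). Its difference was again 0 under quantile normalization, where ranks alone set it.

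The biliary and progenitor list had 1 tested member, Cd24a, a surface glycoprotein of immature epithelial cells. It measured 193, 168 and 196 FPKM with IL6, 125, 113 and 122 without and 0.265, 0.0556 and 0.104 in Primary hepatocytes. Most of its rise was present without IL6, and the cultures differed by 0.62 (SE 0.0806, adjusted p = 4.86e-05). The list of DNA replication and the cell cycle had 1 row in the table, Kif12, which was too low to be tested. Of 8 tested chromatin genes, Hist1h1c fell, from 209 ± 11.8 to 111 ± 8.29 FPKM (SD, n = 3), and the other 7 did not pass. With samples centred or quantile normalized 3 of the 8 fell, among them Hist1h1d (adjusted p = 0.0249 and 0.0132), and Hist1h1c passed the 2-fold limit (-1.01 and -1.02).

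The remaining lists moved in both directions or little. Of 10 tested kinases and phosphatases 4 rose and 3 fell, of 10 transporters 3 rose and 3 fell, of 12 genes of protein breakdown 2 rose and 3 fell, and of 5 genes of the secretory pathway 2 rose and 2 fell, all by less than 2-fold. Their medians ran from -0.043 to 0.081. Of 5 small GTPases and regulators none rose, 2 fell and 3 did not pass. Of 6 tested genes of growth factor and related signalling, 4 rose and 1 fell, but under quantile normalization 1 rose and none fell. Gdf15, a stress-induced cytokine, was one of the 4 that rose, at 49.6 ± 4.04 against 40.8 ± 1.83 FPKM (SD, n = 3). It did not pass under quantile normalization (adjusted p = 0.112), and it was higher in Primary hepatocytes (101 ± 5.16).

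The called genes were looked up in the other comparisons of the series, which rest on separate samples and tables. Each table was normalized on its own, so levels are given within a table only. In IL6-iHPCs-D3 against Hepatocytes, where 53.9% of 12328 genes were called higher, 5 of the 13 genes were, and in IL6-iHPCs-D14, where 50% were, 11 of 13 were. Over all genes tested there, the median log2 difference was 1.14 at day 3 and 1 at day 14. These comparisons share the Hepatocytes samples. The study's legends call the replicates of this table technical repeats, so their SDs and p-values cover technical spread. Against Normal liver, 9 of the 13 could be tested. At 6 h after partial hepatectomy (PHX) 3 of the 9 were called higher where 4.78% of 11114 genes were, at 24 h 3 where 3.74% were (4.16% lower), and at day 3 2 where 3.33% were. The PHX comparisons share the Normal liver samples. Vil1, Uts2b, Psca and Adm2 were too low in the liver samples to be tested.

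Cebpd was higher in all 5 of these comparisons. It measured 3.91 ± 0.134 FPKM in Hepatocytes, 43.9 ± 5.26 at day 3 and 35.1 ± 1.54 at day 14 of IL6 culture (SD, n = 3 each). In Normal liver it was at 2.46 ± 0.558, against 24.9 ± 3.66 at 6 h, 12.7 ± 6.73 at 24 h and 9.82 ± 5.69 at day 3 after PHX. At days 7 and 14 after PHX, not compared by a test, it was at 20.3 ± 3.13 and 9.36 ± 2.75 FPKM. Serpina7 measured 2.25 ± 0.208 FPKM in Hepatocytes, 445 ± 33.4 at day 3 and 38.7 ± 3.97 at day 14, and 14.2 ± 8.36 in Normal liver against 32 ± 10.7 at 6 h, 73.5 ± 31.8 at 24 h and 15.8 ± 13.5 at day 3 after PHX, the last with a log2 difference of -0.0065 (adjusted p = 0.993). Acnat2 came later in culture: it measured 8.27 ± 0.746 FPKM in Hepatocytes, 9.27 ± 1.1 at day 3 and 66.4 ± 4.06 at day 14, and rose from 5.23 ± 0.672 to 78.8 ± 18.9 at 24 h after PHX (log2 difference 3.66, adjusted p = 8.18e-05). Nfil3 was higher at 6 h after PHX, at 28.4 ± 2.87 against 6.6 ± 1.11 FPKM (1.96, adjusted p = 0.000465). At day 3 of IL6 culture Nfil3 was at 37.4 ± 1.81 against 18.7 ± 1.91 FPKM in Hepatocytes (0.97, adjusted p = 2.47e-14). This was just under the 2-fold limit and below the median of 1.14 over all genes tested there. At day 14 Nfil3 was at 16.5 ± 0.417 (-0.17), where that median was 1.

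Nupr1 was at 0.00784 ± 0.0136 FPKM in Hepatocytes and 15.1 ± 1.07 and 20.5 ± 2.57 at days 3 and 14, and was not called at any of the 3 times after PHX. At day 3 after PHX its samples were far apart, at 0.746, 20.2 and 0.182 FPKM, against 1.95 ± 0.626 in Normal liver. At days 7 and 14 after PHX, not compared by a test, it was at 4.42 ± 0.769 and 0.909 ± 0.388. Vil1 was at 0.257 ± 0.117 FPKM at day 3 and 4.82 ± 0.198 at day 14 of IL6 culture. Celsr1 was at 1.59 ± 0.292 FPKM in Hepatocytes, 0.516 ± 0.0479 at day 3 and 2.85 ± 0.0232 at day 14, and was called at neither time (log2 differences -0.77 and 0.58, adjusted p = 4.19e-08 and 5.59e-06). Igfbp1, lower with IL6 at day 7 than without, was still above Hepatocytes at days 3 and 14 with IL6, at 881 ± 23.2 and 2231 ± 176 against 69.4 ± 3.82 FPKM (SD, n = 3 each), as it was above Primary hepatocytes at day 7. Htatip2, above Primary hepatocytes at day 7, was below Hepatocytes at days 3 and 14, at 20.7 ± 4.31 and 18 ± 1.22 against 23.8 ± 1.34 FPKM (log2 differences -0.21 and -0.38, adjusted p = 0.0304 and 0.000248). At 6 h after PHX Htatip2 was called lower than in Normal liver, at 12.1 ± 1.3 against 27.7 ± 3.83 FPKM (-1.12, adjusted p = 0.000592). At that time 11.5% of 11114 genes were called lower and 4.78% higher. Igfbp1, lower with IL6 at day 7, was called higher at 6 h after PHX, at 1283 ± 366 against 50.8 ± 20.6 FPKM (4.69, adjusted p = 0.00409). At 24 h and day 3 Igfbp1 was not called (2.32 and 1.99, adjusted p = 0.144 and 0.216), and its samples were far apart. They measured 42, 1006 and 330 FPKM at 24 h and 99.5, 2272 and 30.2 at day 3. At days 7 and 14 after PHX, not compared by a test, Igfbp1 was at 190 ± 11.2 and 514 ± 57.5 FPKM (SD, n = 3 each).

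**Figure D4:**
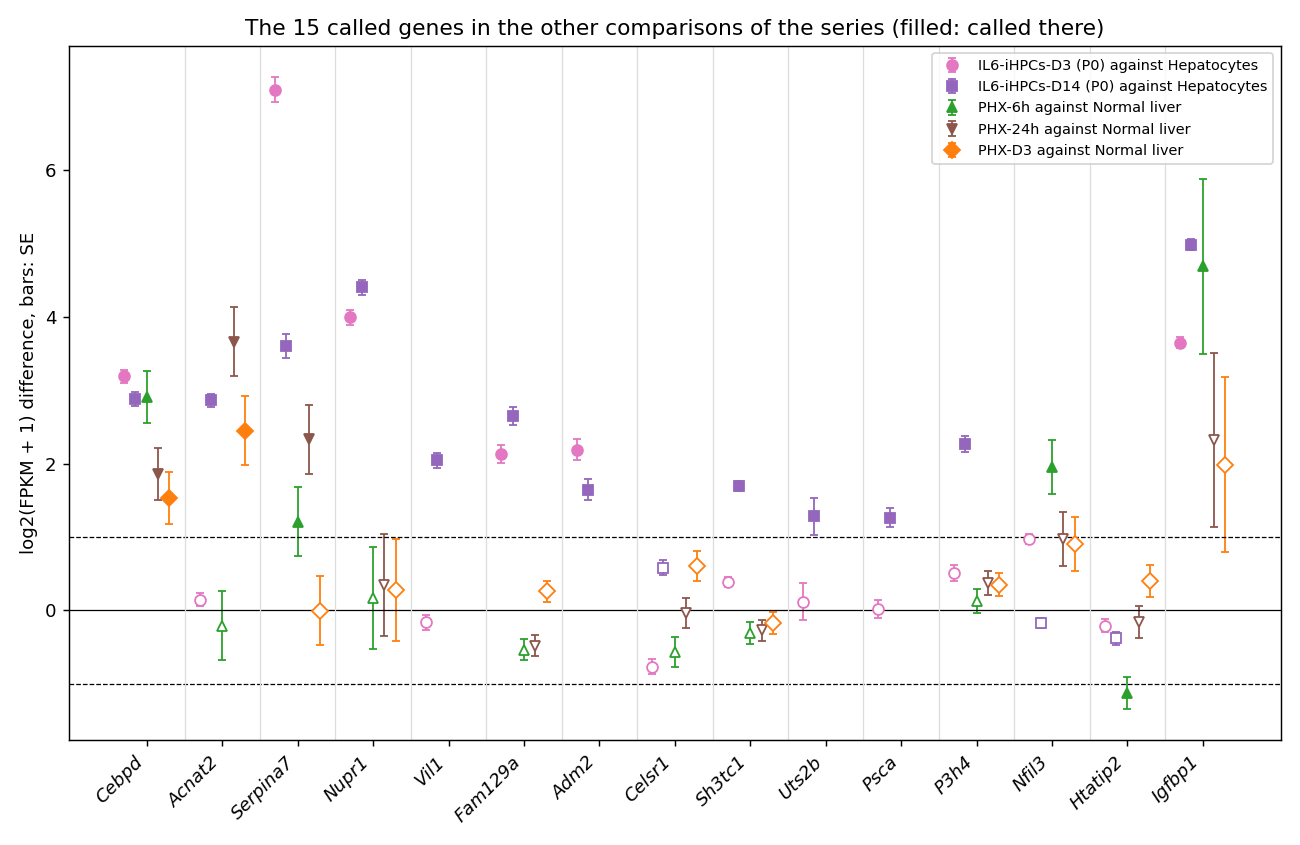
Differences in log2(FPKM + 1) of the 15 genes called at day 7 in 5 other comparisons of the series; bars give the SE, filled symbols were called, and dashed lines mark 2-fold. Cebpd is filled in all 5 comparisons, whereas Nupr1 is filled in IL6 culture and open in the PHX comparisons shown.

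The promoters of the called genes were searched for the STAT palindrome TTCNNNGAA and for TTCNNGAA, its form with a shorter spacer; both read the same on either strand. RefSeq promoters (GRCm38.p6, the build mm10, a window around each start that lies mostly before it) were found for 11 of the 15 genes, 9 of the 13 higher ones and both lower ones. For Cebpd, P3h4, Psca and Celsr1 no promoter was found, so these genes were not searched. TTCNNNGAA occurred in 1 of the 9 higher genes (11.1%) and in 7.31% of the other tested genes, against 9.55% of 27025 genes with a promoter. TTCNNGAA occurred in 2 of the 9 (22.2%), in 6.85% of the other tested genes and in 9.6% of all. Neither was found in Igfbp1 or Htatip2. With 9 genes these shares describe the windows and were not tested. The 3 matches are shown 5′ to 3′ on the strand of the gene, with the motif in capitals and up to 20 bases on each side, so that the site can be placed beside the values of its gene given above. The Nupr1 site begins 128 bases before the start (chr7:126625570-126625618, minus strand), the Uts2b site 241 bases before it (chr16:27370453-27370489, minus strand), and the Acnat2 site 5 bases before the second of the starts listed (chr4:49405736-49405783, minus strand).
Nupr1: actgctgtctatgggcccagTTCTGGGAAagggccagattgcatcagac
Uts2b: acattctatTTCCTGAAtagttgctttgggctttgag
Acnat2: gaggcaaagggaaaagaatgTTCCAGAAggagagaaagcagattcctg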

How the data were processed

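The 9 samples of the day 7 table are poly(A) RNA-seq libraries. The submitters' processing notes name the build mm10, TopHat 1.4.1 and Cufflinks 1.3.0. The deposited values are FPKM, scaled to transcript length and library size, and were used as deposited. The table breaks off, and its incomplete last row was left out.

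Genes with at least 1 FPKM in 3 of the 9 samples were tested with limma 3.58.1 (R 4.3.3; 1 fit of all 3 groups, variance trend) on log2(FPKM + 1). P-values were Benjamini-Hochberg adjusted over all genes tested, and a gene was called at an adjusted p under 0.05 and at least 2-fold. Whole reads were recovered from the steps of the FPKM values for 438 of 440 rows above 0. Replicates differed beyond sampling noise, so none was counted as a duplicate. The other tables were fitted in the same way, each with all of its groups.

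The rule for named genes took Barx2, Elf3, Mxd3 and Foxm1 where present, the 15 largest rises and falls among called genes whose groups did not overlap, the 2 largest rises and falls called in each list, the 5 rows with the highest mean in the day 7 cultures, listed transcription factors that differed in 1 direction from both other groups, and called cell type markers; 19 rows met it. Further members of lists were named after their values were seen. The members and lists were chosen with earlier results of these data known. Coordinates and promoters are from RefSeq, and of the 480 rows 452 matched by symbol and 20 by synonym. Alternatives are given at the end. Scripts were tested on simulated data. Some members of the lists are counted but not reported here by name.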

Additional observations from a re-analysis of the deposited data

How the results depend on the processing

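The 15 called genes had 324 values under the alternatives, of which 287 stayed on the same side of the threshold, 37 were no longer past it and 0 had the opposite direction. Many of these values could hardly change. Removing the low filter, the trend, the Primary hepatocytes or 1 sample of them, or adding the replicate block, left each log2 difference as it was. A looser fold limit cannot lose a call. The tally is therefore no measure of robustness. Igfbp1 was at 0 under quantile normalization, where its rank fixes it. Celsr1 was at 0.68 there. Quantile normalization gave the 9 samples 1 common distribution over the 276 genes, although 46.4% were called higher in IL6-iHPCs-D7 than in Primary hepatocytes. A pass lost under it is therefore no proof that the cultures did not differ. A pseudocount of 0.1 gave 25 called genes (21 higher, 4 lower), and limma voom on recovered reads, chosen after seeing the data, gave 27 (22 and 5); all 15 remained in both. A filter at 5 FPKM gave 9 called genes, 7 of them higher and 6 higher than both other groups, since 6 of the 15 were no longer tested. Centring on the median gave 4 lower genes and 1 transcription factor. With no fold limit there were 160 genes (88 higher, 72 lower, 10 transcription factors, 63 higher and 14 lower than both other groups). A 1.5-fold limit gave 44 (34, 10, and 26 higher and 1 lower than both), and a 4-fold limit 3 (3 higher, 0 lower, 1 transcription factor, 3 higher than both). Leaving out 1 sample at a time, there were 12 to 15 called genes, 9 to 13 higher and 2 to 3 lower, 1 to 2 transcription factors and 8 to 11 genes higher than both. Without HCM-Hepa-D7 replicate 1 and IL6-iHPCs-D7 replicate 2 together, chosen after seeing the data, 1 transcription factor was called. Of the day 7 higher genes, 8 of 13 were higher at day 3 of IL6 culture with no fold limit, as were 72.1% of all genes tested there. With the replicate number as a block, 15 genes were called (13 higher, 2 lower). Deviations from the group means correlated at -0.415, -0.0963 and -0.202 between samples of the same number. Between samples of different numbers the correlations ran from -0.225 to 0.351. Within a group of 3 these deviations sum to 0, so such correlations cannot decide whether samples were paired. The counts of called genes in single lists are small and moved with the scaling. Under quantile normalization the secreted plasma protein list went from 2 to 1 and the growth factor list from 1 to 0. The lipid list had 1 called gene in place of 0 when samples were centred, and the chromatin list 1 in place of 0 under both scalings. With no filter on low values, 440 rows were tested and the same 15 genes were called. The causes of the changes were not tested.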
